A study of Mus musculus with 9 samples.

Results

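Both mutant genotypes of Terc were set together against wild type in mouse nuclear-transfer embryonic stem cells (ntESCs), pluripotent cells derived from embryos in which the egg's nucleus was replaced by that of a somatic cell. All 9 arrays of the series entered the comparison: 3 Terc+/- and 3 Terc-/- arrays formed the mutant group of 6, and 3 Terc+/+ arrays formed the control group. The groups carried 1, 0 and both working copies of Terc, respectively, on a C57BL/6 background, and no further allele or agent was named. Every sample was grown without serum in a knockout replacement medium with the cytokine LIF, on embryonic fibroblast feeders arrested with mitomycin-C, and the feeders were taken off before RNA extraction. The labels call the 3 samples of a genotype biological repeats, and nothing says whether they were separate lines or cultures of 1 line, so the p-values measure the spread between these samples, which may be technical.

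Terc encodes the RNA that telomerase carries as the template for telomere repeats, and the protein Tert copies it onto chromosome ends. Cells that lack this RNA cannot extend telomeres by telomerase, and loss of 1 copy lowers the amount of enzyme that can be assembled. Embryonic stem cells normally keep telomerase active and divide fast, with high output of ribosomes, RNA-processing factors and nucleotides.

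The measurements were log2 values of 25697 bead-array probes, of which 23141 had 1 gene symbol (16110 genes). Pairs of arrays correlated between 0.950 and 0.995 over all probes. No probe carried the symbol Terc, so the genotypes rest on the labels. Feeder markers spread widely within every genotype: their array score, the mean log2 deviation over 43 markers, was -0.12, 0.95 and -1.25 on the Terc+/+ arrays and ran from -0.80 to 1.17 on the mutant arrays. Of the 43 markers 0 were separated and 0 called, 38 had a higher and 5 a lower mutant mean (52.3% of named genes had a higher one), and the median difference was 0.18, the highest of the 46 gene lists used here, with -0.09 in Terc+/- and 0.54 in Terc-/-. The mutant and Terc+/+ scores did not differ beyond this spread (difference 0.21, exact permutation test over the 9 arrays, two-sided p = 0.738, smallest possible 0.0238). In RNA from whole cultures, fewer cells of a type and less RNA per cell cannot be told apart.

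Across the transcriptome, 101 of 25697 probes (0.393%) differed between the 6 mutant and the 3 Terc+/+ arrays at a Benjamini-Hochberg adjusted p under 0.05 in limma, a linear model that shares information on the spread between probes. Of these, 39 were higher in the mutants (0.152% of all probes) and 62 lower (0.241%). They named 85 genes, 33 that rose and 52 that fell, and 12 of the probes had no gene symbol. The adjusted p-values were close to the threshold, with a lowest value of 0.0154. The median size of a called difference was 0.71 on the log2 scale (1.64-fold), and 11 probes differed by 1 or more.

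A wider set of 1551 probes (6.04%) had all 6 mutant arrays on one side of all 3 Terc+/+ arrays, 800 of them above (3.11%) and 751 below (2.92%). All 101 called probes were among them. The median size of these separated differences was 0.39 (1.31-fold), against 0.08 over all probes. Bright probes separated the groups more often: 9.12% of the 12428 probes with a mean above 6 did so, and 3.15% of the 13269 dimmer ones. At the edge of this set, Hdhd5 lay just inside with a gap of 0.0001 between the groups (difference -0.19), and Hspa2 just outside (gap -0.0001, difference -0.35).

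The number of called probes depended on single arrays. No probe passed (0 called in each) when Terc+/+ replicate 1 or 2, or replicate 2 of Terc-/-, was left out. Leaving out Terc+/- replicate 1 or 3 gave 14 and 21 calls, and leaving out Terc-/- replicate 1 or 3 gave 25 and 34. Without Terc+/- replicate 2 there were 219 calls, and without Terc+/+ replicate 3, the array with the lowest feeder score, there were 709, which included all 101. The called probes are all separated, so leaving out 1 array cannot turn their sign.

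**Figure D1:**
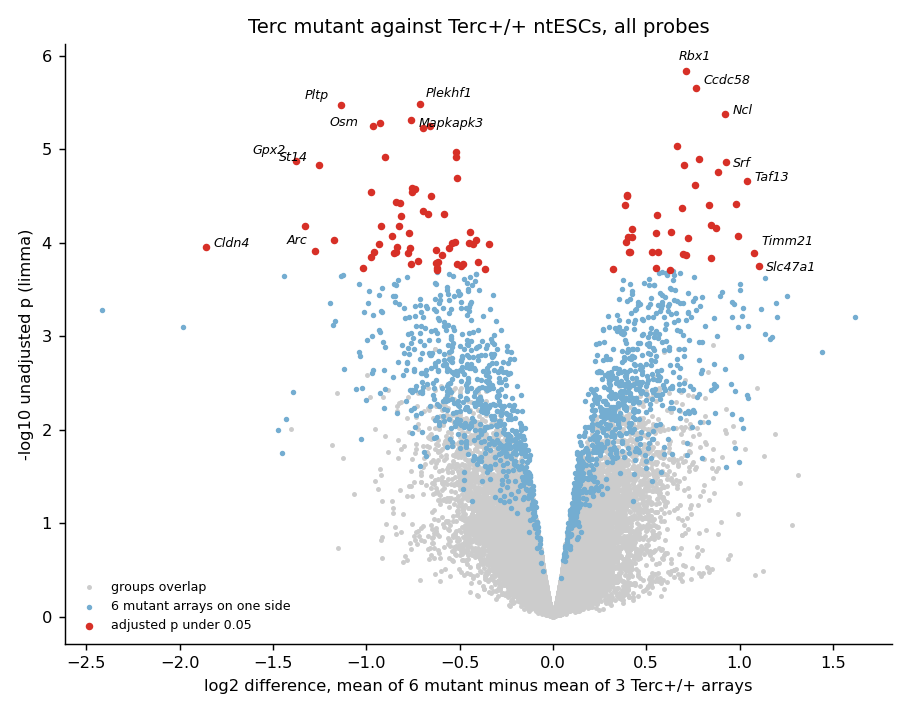
Each point is 1 of 25697 probes, with the log2 difference between the mean of 6 mutant and the mean of 3 Terc+/+ arrays on the x axis and -log10 of the unadjusted limma p on the y axis. Blue points are separated probes, and red points are the 101 with an adjusted p under 0.05, 39 to the right and 62 to the left.

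Several genes for RNA handling rose. Nucleolin (Ncl), the abundant nucleolar protein that takes part in ribosomal RNA transcription and processing, had log2 values of 10.00, 9.93 and 10.08 on the Terc+/+ arrays, and a lowest, median and highest mutant value of 10.77, 10.91 and 11.10. The groups lay 0.69 apart with no overlap, and Ncl rose 1.89-fold (log2 difference 0.92, SE 0.10, adjusted p = 0.0154). A second Ncl probe rose by 0.88 (SE 0.11, adjusted p = 0.0224). Nsun2, which methylates cytosines in tRNA, was at 6.67, 6.48 and 6.62 in Terc+/+ and between 7.16 and 7.44 in the mutants (median 7.20). It rose 1.58-fold (adjusted p = 0.0199). Ddx3x, a DEAD-box helicase of translation initiation, rose 1.69-fold (0.76, SE 0.10), from 10.00, 9.87 and 9.70 to a mutant range of 10.48 to 10.84 (median 10.57).

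Some splicing and transcription factors also rose. Among them, Lsm6, a ring protein of the U6 snRNP, rose by 0.72 (SE 0.11), Snu13, shared by the U4 snRNP and box C/D snoRNPs, by 0.56 (SE 0.09), and Phf5a, an SF3b subunit, by 0.42 (SE 0.06). Taf13, a subunit of the general transcription factor TFIID, had the third-largest rise among called named genes, 2.06-fold. Its Terc+/+ values were 8.72, 8.84 and 8.99, and its mutant values ran from 9.60 to 10.13 (median 9.93), so that every mutant array was more than 0.5 above every control array. The transcription elongation factor Elof1 rose 1.32-fold, and Cir1, a corepressor that binds the Notch effector RBPJ, 1.97-fold on 1 probe, while its other probe differed by 0.03 (adjusted p = 0.954).

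Of 43 measured nucleolar and ribosome assembly factors, 1 rose and 0 fell, 34 had a higher mutant mean, and 8 lay wholly above Terc+/+ with 0 below. The backgrounds among named genes, each by its brightest probe, were 0.168% called higher, 52.3% with a higher mean and 3.48% wholly above. Neither these shares nor those beside other lists were matched for brightness. Separation was more frequent among probes with a mean above 6 (9.12%) than among dimmer ones (3.15%). The list's median difference was 0.16, against 0.01 over all named genes. Pes1, a factor of large-subunit maturation, missed the threshold with values of 8.52, 8.55 and 8.21 in Terc+/+ and 8.91 to 9.78 in the mutants (difference 0.96, adjusted p = 0.0631). Bop1 (0.39), Gnl3 (0.55), Utp6 (0.60) and Ftsj3 (0.76) were also separated and not called.

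Cytosolic ribosomal proteins had 0 of 63 called, 44 with a higher mean, 5 wholly above and 0 below, with a median of 0.14. Rpl30 differed by 1.12 (adjusted p = 0.0596), from 9.42, 9.83 and 9.35 to between 10.09 and 11.20. Among 30 tRNA and mRNA modification enzymes Nsun2 was the 1 call. Among 39 spliceosome and SR proteins 1 was called, while 7 lay wholly above and 1 below. Of these 39, 20 had a higher and 19 a lower mean, with a median of 0.01. Snrpd1, a core Sm protein of the second of these lists, differed by 1.14 and did not pass (adjusted p = 0.0507). The 47 translation initiation factors and the 33 aminoacyl-tRNA synthetases had 0 called members, and of the synthetases 21 had a lower mean and 12 a higher one.

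**Figure D2:**
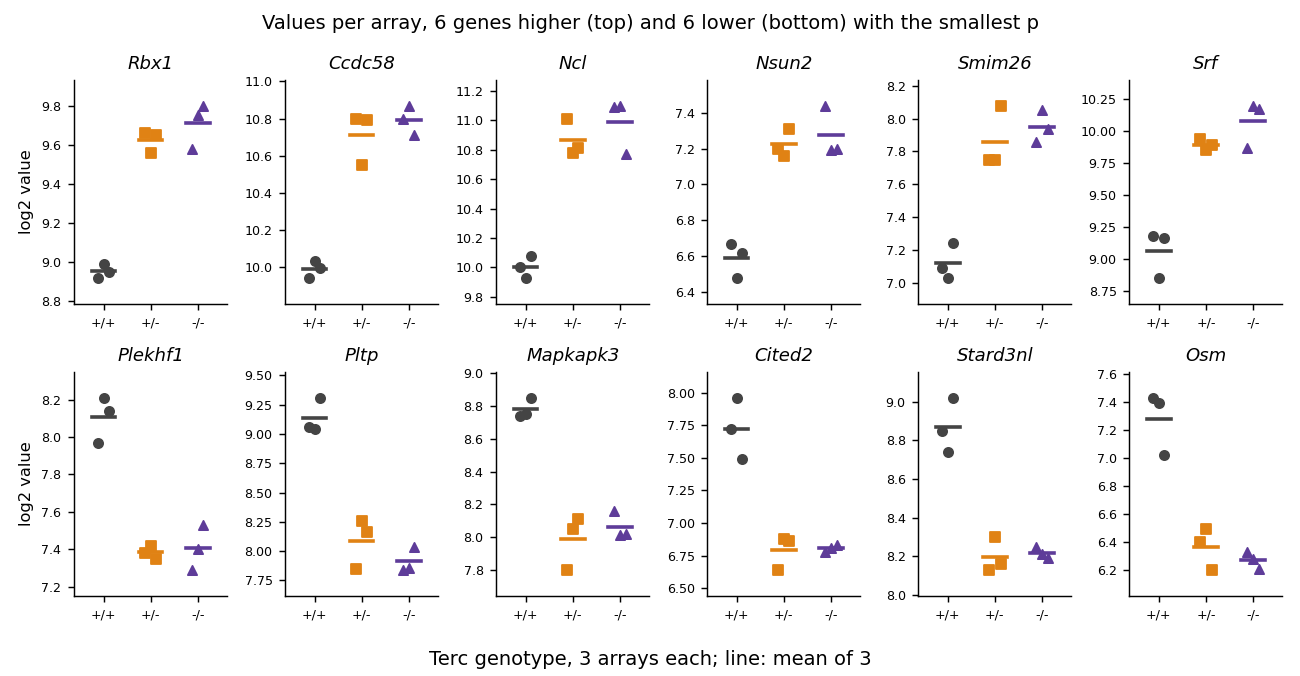
Log2 values of the 6 named genes with the smallest p among the rises (top row) and among the falls (bottom row) on each of the 9 arrays, by genotype, with a line at the mean of 3 arrays. In all 12 panels the 3 Terc+/+ arrays lie apart from the 6 mutant arrays, and the Terc+/- and Terc-/- arrays overlap each other.

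Genes of protein turnover and mitochondria were also among the rises. Rbx1, the RING subunit of cullin ubiquitin ligases, was at 8.92, 8.99 and 8.95 in Terc+/+ and at 9.56 to 9.80 in the mutants (median 9.66), a rise of 1.64-fold (0.71, SE 0.07, adjusted p = 0.0154). Cops3, a subunit of the COP9 signalosome that removes Nedd8 from cullins, rose 1.32-fold (0.40, SE 0.05, adjusted p = 0.0274). The groups did not overlap on these probes, while on a brighter Rbx1 probe (mean 12.51) they overlapped (difference 0.24, adjusted p = 0.379). Among named genes 52.3% had a higher mean and 3.48% lay wholly above. Of 44 proteasome genes 0 were called, 29 had a higher mean, and 6 lay wholly above with 0 below (median 0.14). Psma4 was the largest of those at 0.98 (adjusted p = 0.137).

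Ccdc58, which codes for a mitochondrial protein, rose 1.70-fold (adjusted p = 0.0154). It was at 9.94, 10.03 and 9.99 in Terc+/+ and between 10.55 and 10.87 in the mutants. Smim26, a small membrane protein, rose 1.72-fold (7.09, 7.03 and 7.24 against 7.75 to 8.08). Timm21, a part of the inner-membrane import complex TIM23, rose 2.11-fold on 1 probe (1.08, SE 0.17, adjusted p = 0.0417). That probe scattered more, with 7.02, 7.24 and 6.76 against 7.73 to 8.51. The groups overlapped on a brighter Timm21 probe (mean 9.84, difference 0.83, adjusted p = 0.114). The 33 genes of mitochondrial import and assembly held 1 call, Ccdc58, and 81 genes of oxidative phosphorylation held 0, with a median of 0.02. Ppat, the first committed enzyme of purine synthesis, rose 1.64-fold, from 9.56, 9.26 and 9.66 to between 10.02 and 10.48. Rpa1, the large subunit of the protein that coats single-stranded DNA, rose 1.33-fold and was 1 of 37 DNA damage and repair genes to be called.

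Among called probes with a gene name, the largest rise was that of Slc47a1, an efflux transporter of organic cations, at 2.15-fold (1.10, SE 0.18, adjusted p = 0.0486). Its Terc+/+ values of 7.06, 7.10 and 6.74 lay below a mutant range of 7.53 to 8.40. Other probes of Slc47a1 differed by 0.08 and 0.10 and had means of 5.70 and 5.84, near the lower end of the scale. Among the remaining rises were Haus1 (0.70), a subunit of the augmin complex of the spindle, 1 probe of Nme7 (0.85), a protein of the gamma-tubulin ring complex, and the protease Capn7 (0.70). Brighter Nme7 probes differed by 0.09 (mean 9.58) and 0.22 (mean 9.16) with overlapping groups.

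Stem cell regulators were represented by 3 of the rises. Lin28a, the RNA-binding protein that blocks let-7 maturation, was at 9.35, 9.20 and 9.55 in Terc+/+ and at 9.90 to 10.20 in the mutants (median 10.07), a rise of 1.61-fold (0.69, SE 0.09, adjusted p = 0.0302). The groups overlapped on a second Lin28a probe (difference 0.50, adjusted p = 0.334). L1td1, an RNA-binding protein of pluripotent cells, rose 1.80-fold, from 11.47, 11.07 and 11.42 to between 11.96 and 12.42. Sall4, a zinc-finger factor of the pluripotency network, rose 1.34-fold within a narrow range (12.36, 12.31 and 12.13 against 12.64 to 12.73). Its other probes differed by 0.79 and -0.04 and were not called.

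By its means, the network as a whole did not move one way. Of 30 core and naive pluripotency genes 2 rose (Lin28a and Sall4) and 0 fell. The mean was higher in 14 and lower in 16, with a median of -0.09. Of the 30 genes 5 lay wholly above Terc+/+ and 0 below. Among named genes 0.168% were called higher and 3.48% lay wholly above. Gbx2, a homeobox gene of naive cells, differed 2.30-fold and missed the threshold (adjusted p = 0.0632), its Terc+/+ values of 10.63, 10.45 and 10.25 lying below a mutant range of 11.17 to 12.30. Pou5f1 differed by 0.07 (SE 0.30, adjusted p = 0.956) with overlapping groups: Terc+/+ covered 11.13 to 12.70 and the mutants 11.72 to 12.32. Sox2 differed by -0.35 (SE 0.29, adjusted p = 0.709). Zscan4c, which is switched on in two-cell-like cells and is linked to telomere lengthening in stem cells, was at 7.28, 6.98 and 5.55 in Terc+/+ and between 6.57 and 9.71 in the mutants, which overlapped (difference 1.28, SE 0.71, adjusted p = 0.536). The 17 two-cell-like genes and the 23 genes for telomerase and telomere proteins had 0 called members, and of the telomere list 0 were separated.

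Chromatin factors added 3 called genes. Kdm5b, a demethylase of histone H3 lysine 4, rose 1.47-fold (6.60, 6.60 and 6.39 against 6.95 to 7.18, adjusted p = 0.0325). Morc2a, an ATPase that works with the HUSH silencing complex, rose 1.44-fold (9.45, 9.39 and 9.34 against 9.77 to 10.10). Kmt5b, which methylates histone H4 lysine 20, rose 1.25-fold, the smallest called difference (0.32). The shares among named genes were 0.168% called higher, 52.3% with a higher mean and 3.48% wholly above. Of 33 chromatin silencing factors 2 rose, 22 had a higher mean, 4 lay wholly above and 1 below. Ehmt2, a histone H3 lysine 9 methyltransferase, was that 1 (difference -0.33, adjusted p = 0.181).

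Srf, the transcription factor that drives immediate early and actin genes, rose 1.90-fold (0.92, SE 0.11, adjusted p = 0.0199). It was at 9.18, 8.85 and 9.16 in Terc+/+ and at 9.85 to 10.20 in the mutants, so the groups lay 0.68 apart. A second Srf probe differed by -0.28. Arc, an immediate early gene of the neuronal cytoskeleton and a known Srf target, fell 2.42-fold (log2 difference -1.27, SE 0.20, adjusted p = 0.0417), from 8.42, 7.59 and 7.94 to between 6.52 and 7.24. Over the 28 genes of Srf, its cofactors and immediate early genes, Srf was the 1 call, 23 had a lower mean and 5 a higher one, and the median was -0.18. Among named genes 47.7% had a lower mean. Array scores of these 28 genes overlapped, at 0.05 to 0.15 in Terc+/+ and -0.261 to 0.255 in the mutants, highest on Terc-/- replicate 3. The 29 actin cytoskeleton targets held 0 calls and had a median of 0.05.

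The largest fall was that of an epithelial junction gene. Claudin 4 (Cldn4), a tight junction protein, was at 10.70, 10.36 and 11.61 in Terc+/+ and between 8.49 and 9.56 in the mutants (median 9.07). It fell 3.63-fold (-1.86, SE 0.29, adjusted p = 0.0417). St14, the membrane protease matriptase, had the widest gap between the groups: 8.04, 8.00 and 8.06 in Terc+/+ against 6.48 to 7.13, a distance of 0.87, for a fall of 2.39-fold (-1.25, SE 0.15, adjusted p = 0.0199). Liph, a lipase that makes lysophosphatidic acid, fell 1.97-fold.

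The other epithelial markers were not called. Of 22 epithelial and keratin markers, 1 fell (Cldn4) and 0 rose, 14 had a lower and 8 a higher mean, the median was -0.05, and 3 lay wholly below Terc+/+, where 0.255% of named genes were called lower, 47.7% had a lower mean and 2.97% lay wholly below. Krt17 was at 8.11, 7.84 and 7.97 in Terc+/+ and 6.81 to 7.50 in the mutants and just missed the threshold (-0.83, adjusted p = 0.0521). Krt7 differed by -0.44 (adjusted p = 0.194). The score of the whole list was 0.04, -0.03 and 0.56 on the Terc+/+ arrays, highest on replicate 3, and -0.20 to -0.01 on the mutant arrays. Those scores overlapped, and their part in the fall of Cldn4 and St14 was not tested. For St14 the 3 Terc+/+ arrays lay within 0.06 of each other.

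Antioxidant enzymes were among the larger falls. Gpx2, a glutathione peroxidase of epithelia, fell 2.60-fold (-1.38, SE 0.16, adjusted p = 0.0199), from 9.14, 9.62 and 9.77 to between 7.94 and 8.41. Gstm1, a glutathione transferase, fell 1.91-fold (8.86, 8.56 and 8.83 against 7.42 to 8.13). Ephx2, the soluble epoxide hydrolase, fell 1.96-fold (7.73, 7.75 and 8.09 against 6.55 to 7.13). Among named genes 0.255% were called lower, 47.7% had a lower mean and 2.97% lay wholly below. The array scores of the antioxidant list overlapped, at -0.01, 0.26 and 0.09 in Terc+/+ and -0.19 to 0.11 in the mutants. Gpx2, Gstm1 and Ephx2 were the 3 called of 42 glutathione and antioxidant genes, 0 rose, 29 had a lower mean and 7 lay wholly below with 0 above. The other 4 of those 7 were Gstm6 (-0.45), Cat (-0.55), Gstm2 (-0.55) and Cbr3 (-1.45), with adjusted p-values from 0.0605 to 0.26. Txn2, the mitochondrial thioredoxin, fell 1.55-fold.

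Pltp, the phospholipid transfer protein of plasma lipoproteins, shared the lowest adjusted p with 6 other falls. It was at 9.06, 9.04 and 9.31 in Terc+/+ and at 7.84 to 8.26 in the mutants (median 7.95), a fall of 2.20-fold (-1.13, SE 0.11, adjusted p = 0.0154). Agpat4, which acylates lysophosphatidic acid, fell 1.62-fold (8.87, 8.89 and 8.66 against 7.98 to 8.19). One probe of Lpcat3, which loads polyunsaturated acyl chains onto phospholipids, fell by 0.56 on the log2 scale, and its brightest probe differed by -0.49 and was not called. Fatty acid genes that fell were the transporter Slc27a1 (1.70-fold) and the peroxisomal thiolase Acaa1a (1.44-fold, 11.57, 11.66 and 11.68 against 11.04 to 11.20). The shares among named genes were 0.255% called lower, 47.7% with a lower mean, 2.97% wholly below and 3.48% wholly above. In the list of 44 phospholipid, lipoprotein and fatty acid genes 2 fell and 0 rose, 30 had a lower mean, 5 lay wholly below and 2 above. Gpd2, the mitochondrial glycerol-3-phosphate dehydrogenase, was the clearest exception in direction, at 9.26, 8.99 and 9.13 against 9.56 to 9.92 (0.59, adjusted p = 0.0502).

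Further metabolic enzymes fell. Hk1, the hexokinase that starts glycolysis, was at 7.94, 7.92 and 8.00 in Terc+/+ and 6.80 to 7.28 in the mutants, a fall of 1.87-fold (-0.90, SE 0.11, adjusted p = 0.0199), and was the 1 call among 25 glycolysis genes. Gldc, which cleaves glycine and is highly expressed in embryonic stem cells, fell 1.94-fold (9.93, 9.87 and 9.36 against 8.52 to 8.99). On a brighter Gldc probe (mean 11.29) the groups overlapped (difference -0.62, adjusted p = 0.16). Smox, the spermine oxidase, fell on 3 probes by 0.54, 0.52 and 0.49 on the log2 scale. Amdhd2, which removes an acetyl group from N-acetylglucosamine-6-phosphate, fell 1.65-fold with Terc+/+ values of 8.74, 8.74 and 8.77. Fech, the last enzyme of haem synthesis, fell 1.29-fold.

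Signalling genes made up another group of falls. Osm (oncostatin M), a cytokine of the LIF family, was at 7.43, 7.39 and 7.02 in Terc+/+ and at 6.20 to 6.49 in the mutants, a fall of 1.95-fold (-0.96, SE 0.10, adjusted p = 0.0154). Hes1, a repressor induced by Notch, fell 1.76-fold (10.39, 10.34 and 10.40 against 9.29 to 9.79, adjusted p = 0.0329). Cited2, which binds the coactivators CBP and p300 and helps maintain stem cells, fell 1.90-fold (7.72, 7.96 and 7.49 against 6.64 to 6.88, adjusted p = 0.0154). In all 3 genes the lowest Terc+/+ array was above the highest mutant array by more than 0.5.

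Kinases, phosphatases and G proteins also appeared. Mapkapk3, a kinase activated by p38, fell 1.69-fold with little scatter (8.74, 8.75 and 8.85 against 7.80 to 8.16, SE 0.08, adjusted p = 0.0154) and was the 1 call among 28 genes of FGF, ERK and p38 signalling. Dusp4, a phosphatase of ERK in the same list, lay wholly below Terc+/+ and missed the threshold (-0.57, adjusted p = 0.0736). The G-protein subunits Gnai2 and Gnb2 fell 1.51-fold and 1.36-fold, and Phlpp1, which dephosphorylates AKT, 1.27-fold. Tle3, a Groucho corepressor, fell 1.43-fold, and Jdp2, a leucine-zipper factor of the AP-1 family, 1.77-fold. One probe of the angiogenic factor Vegfa fell 1.50-fold (8.21, 8.26 and 8.27 against 7.47 to 7.82), and its other probes differed by 0.05 and -0.00. Dio3, the imprinted enzyme that inactivates thyroid hormone, fell 2.03-fold (6.76, 6.85 and 7.57 against 5.88 to 6.21).

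Some genes of endosomes, lysosomes and membrane contacts fell, by 1.40-fold to 1.79-fold. Plekhf1, an endosomal protein that binds phosphoinositides, was at 7.97, 8.21 and 8.14 in Terc+/+ and at 7.29 to 7.53 in the mutants, a fall of 1.64-fold (-0.71, SE 0.07, adjusted p = 0.0154). Stard3nl, a protein of contacts between endosomes and the endoplasmic reticulum, fell 1.58-fold (8.85, 8.74 and 9.02 against 8.13 to 8.30). Its partner in the endoplasmic reticulum, Vapb, fell 1.77-fold (8.93, 8.80 and 8.88 against 7.76 to 8.24). On a brighter Vapb probe (mean 9.05) the groups overlapped (difference -0.59, adjusted p = 0.157). Chmp4b, the membrane-cutting subunit of ESCRT-III, fell 1.57-fold from Terc+/+ values that lay within 0.01 of each other (10.70, 10.69 and 10.70). Also lower were the sorting receptor Sorl1 (1.79-fold), progranulin (Grn, 1.40-fold) and the lysosomal protease Lgmn (1.54-fold).

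Of 32 lysosome and autophagy genes 2 fell (Plekhf1 and Grn) and 0 rose, 26 had a lower mean, and 7 lay wholly below with 1 above, for a median of -0.20. Among named genes 0.255% were called lower, 47.7% had a lower mean and 2.97% lay wholly below. The list's array scores overlapped, at 0.17, 0.31 and 0.11 in Terc+/+ and -0.25 to 0.12 in the mutants, highest on Terc-/- replicate 3. Hexa, a subunit of the lysosomal enzyme beta-hexosaminidase, was at 10.14, 10.14 and 10.40 in Terc+/+ and 8.57 to 9.51 in the mutants and missed the threshold (-1.14, adjusted p = 0.0502). Ctsz (-0.84), a cathepsin, and Atp6v0d1 (-0.46), a subunit of the proton pump, had adjusted p-values of 0.0531 each. The gene on the other side was Tfe3 (0.43, adjusted p = 0.157), a transcription factor of lysosomal genes.

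The amino acid and ER stress list and the p53 targets had low medians with few calls. The lowest median of all 46 lists (-0.24) was that for amino acid and ER stress, with 32 of 37 genes at a lower mean, 3 wholly below and 0 called. Its member Ddit3 (CHOP), a factor induced by endoplasmic reticulum stress, was at 8.39, 8.71 and 7.99 against 7.17 to 7.73 (-0.93, adjusted p = 0.0572). The array scores of this list overlapped, at 0.25, 0.28 and 0.03 in Terc+/+ and -0.20 to 0.04 in the mutants. Of 45 p53 targets 33 had a lower mean, 6 lay wholly below and 0 above, and 1 fell, which was Pltp (median -0.20). Terc-/- replicate 3 scored 0.118 on the p53 list, close to the 0.127 to 0.135 of Terc+/+. Among named genes 0.255% were called lower, 47.7% had a lower mean and 2.97% lay wholly below. The largest separated difference on the array was that of the heat-inducible chaperone Hspa1a, -2.41 (SE 0.46), which did not pass (adjusted p = 0.0596). Its values spread widely within both groups, with 9.37, 9.99 and 8.52 against 6.19 to 8.25. The median of the 17 heat shock response genes was -0.03.

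**Figure D3:**
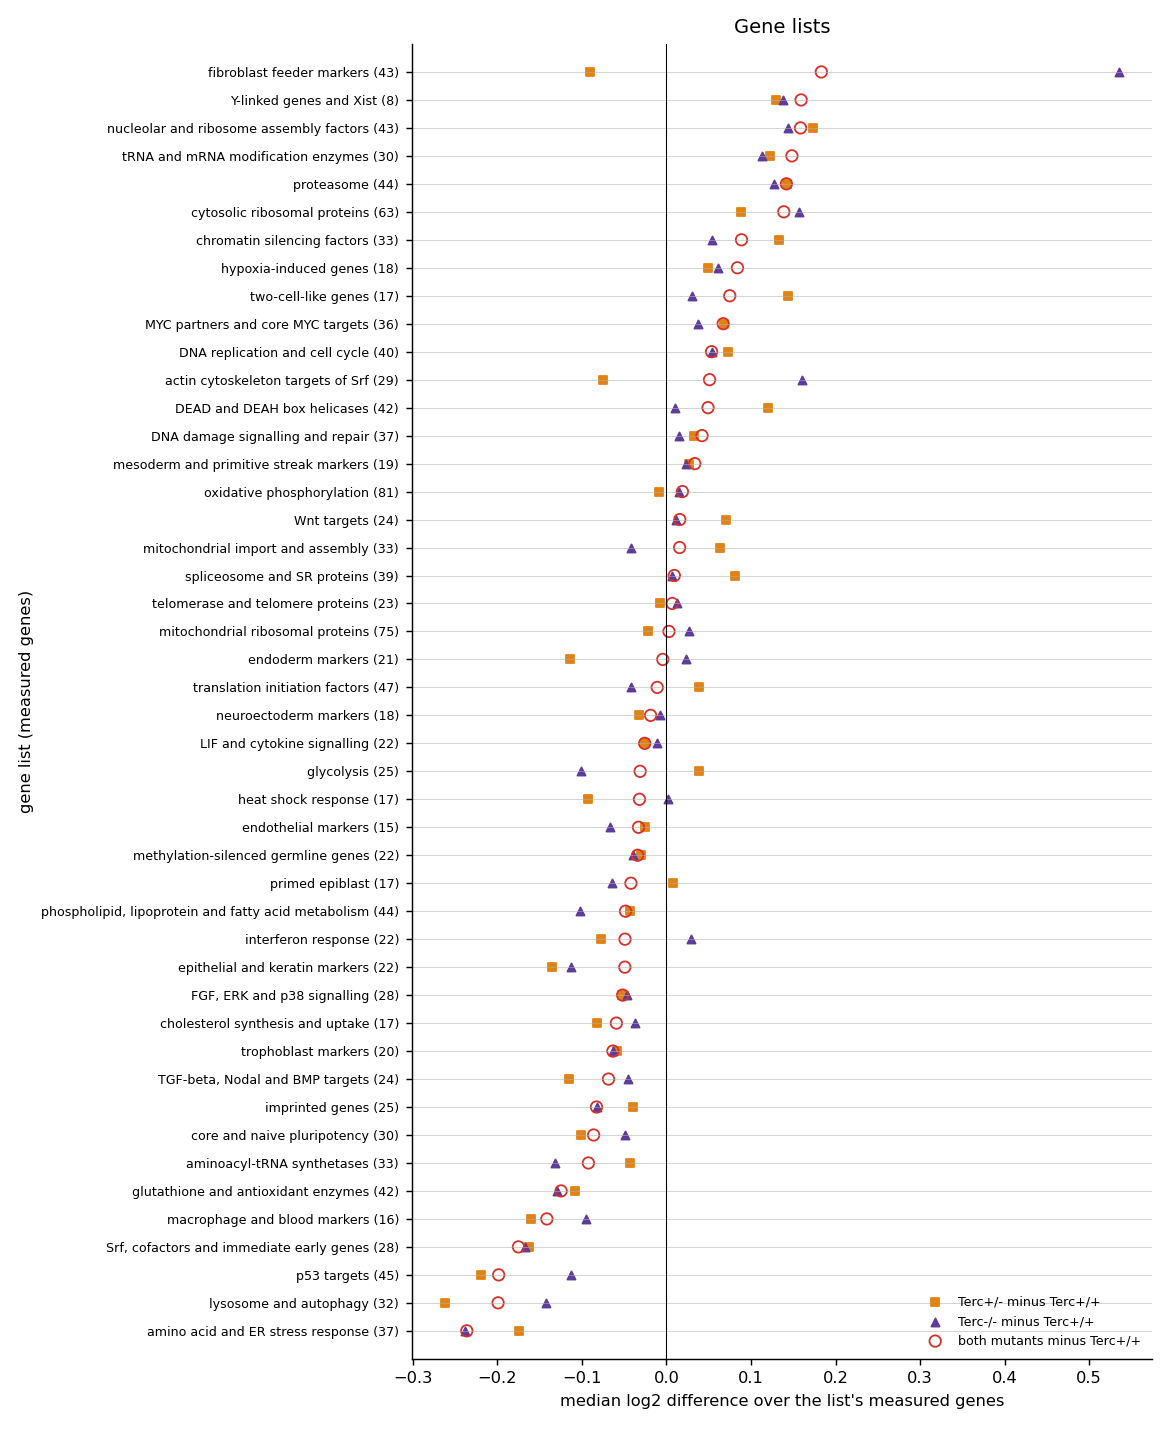
Median log2 difference from Terc+/+ over the measured genes of each of 46 lists, for both mutants together (open circles), Terc+/- (squares) and Terc-/- (triangles), with the number of genes in brackets. Medians for both mutants run from -0.24 in the amino acid and ER stress response to 0.18 in the feeder markers, where the genotypes lie far apart (-0.09 and 0.54), and all comparisons share the same 3 Terc+/+ arrays.

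No probe was called between the mutant genotypes. A fit with the 3 genotypes apart called 0 of 25697 probes (0.0%) between Terc-/- and Terc+/- (466 probes, 1.81%, had an unadjusted p under 0.05). Set against the same 3 Terc+/+ arrays, Terc+/- alone gave 0 calls (lowest adjusted p 0.104) and Terc-/- alone gave 10 (0.0389%). Among the 101 probes called in the pooled comparison, the median size of the difference between the mutant genotypes was 0.08. These probes were called for a small spread among the 6 mutant arrays beside their distance from Terc+/+, so a small difference between the mutant genotypes follows from that choice. The median half-width of its 95% interval was 0.26, so differences of that size between 1 and 0 copies of Terc would not have been resolved for a typical gene.

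Gstm1 had the largest difference between the mutant genotypes among called probes, -0.33, with 7.91, 8.13 and 7.92 in Terc+/- and 7.87, 7.42 and 7.68 in Terc-/-. The Terc-/- mean was the farther from Terc+/+ in 61 of the 101 probes and the Terc+/- mean in 40. Over the 1551 separated probes these numbers were 884 (57.0%) and 667. Trps1 had the largest difference of these, 0.91. The nearest mutant array to the controls was Terc+/- replicate 2 in 479 of the 1551 (30.9%), more than any other mutant array, and the nearest Terc+/+ array was replicate 2 in 611 (39.4%).

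**Figure D4:**
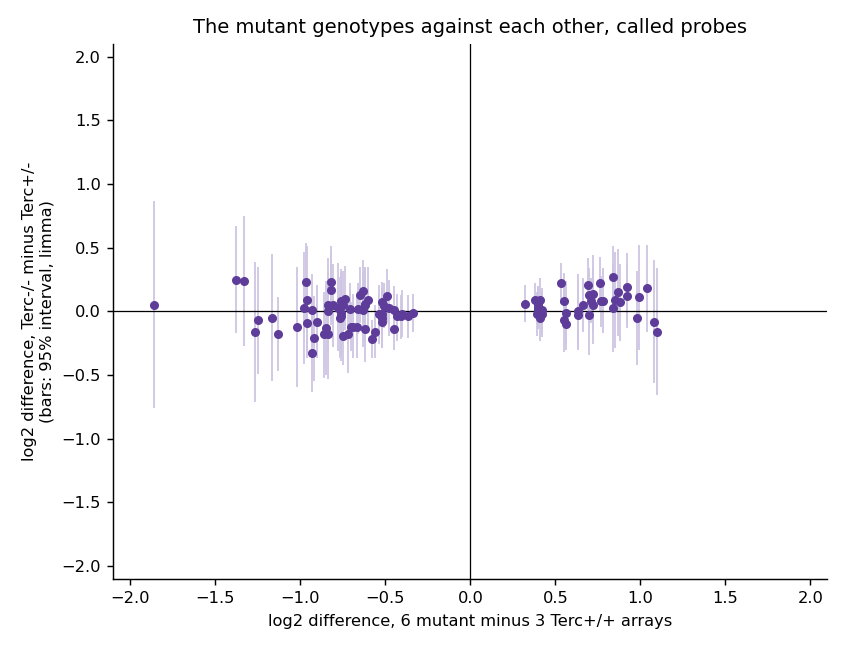
For each of the 101 called probes, the log2 difference between 6 mutant and 3 Terc+/+ arrays (x axis) and the log2 difference between Terc-/- and Terc+/- with its 95% interval (y axis), on equal scales. Points lie within 0.33 of 0 on the y axis and between -1.86 and 1.10 on the x axis.

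**Figure D5:**
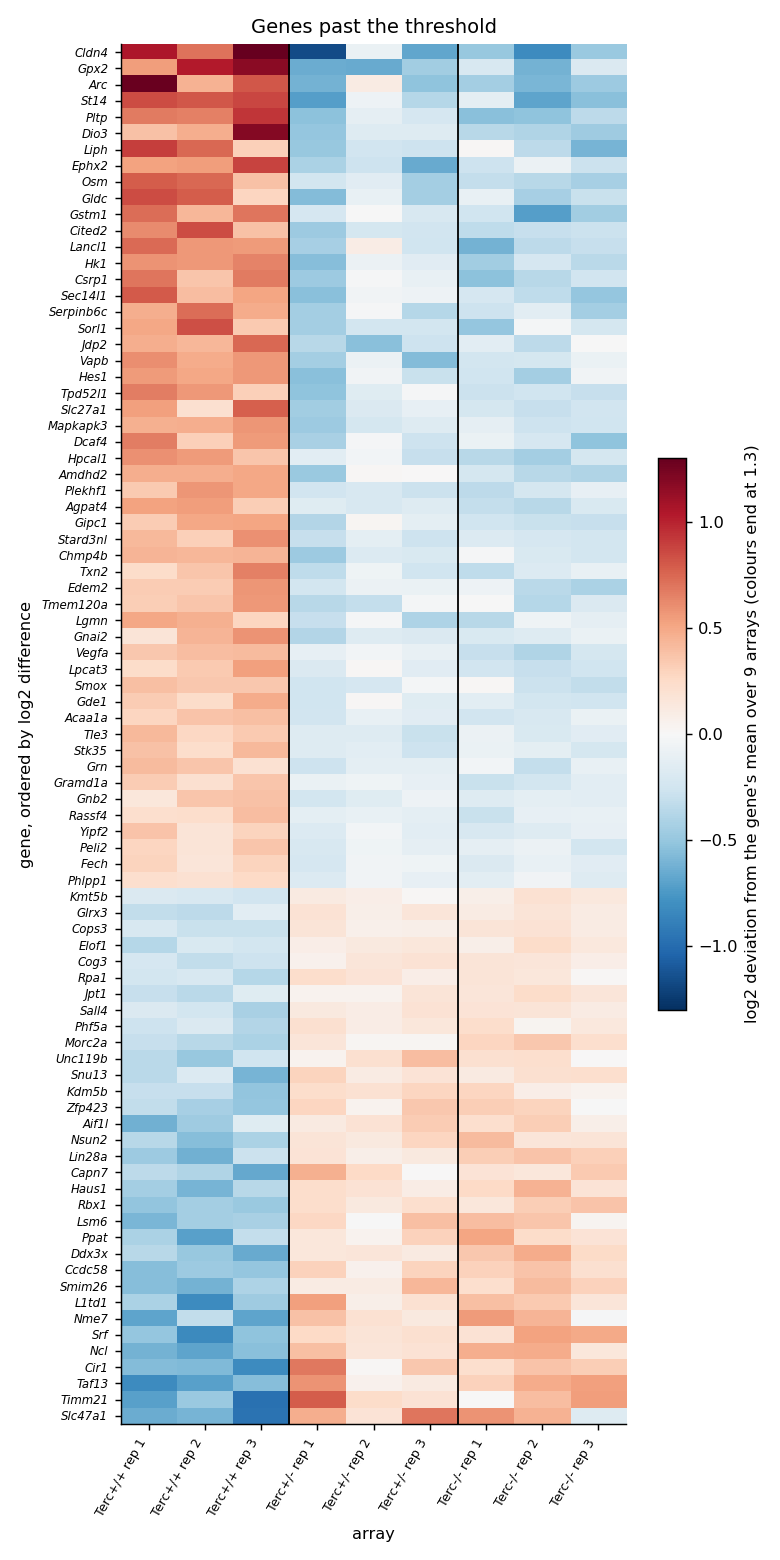
Called genes (rows, 1 probe a gene, ordered by the log2 difference) on the 9 arrays (columns), coloured by the log2 deviation from the gene's mean over all arrays. The 52 lower genes are red and the 33 higher genes blue on the 3 Terc+/+ arrays, and Terc+/- replicate 2 is the palest mutant column for Arc, Cldn4 and St14.

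Other probes of the same genes gave a partial check on single probes. Of the called genes, 38 had a further probe, and 3 genes (Ncl, Lancl1 and Smox) were called on more than 1. Of 65 further probes that were not called, 55 had the sign of the called probe and 22 were separated the same way. Among the 52 with a mean above 6, 44 had the same sign and 21 were separated. Genes with a further probe of the opposite sign included Srf (-0.28), Lancl1 (0.16), Nme7 (-0.13) and Kmt5b (-0.14), so that their rise or fall applies to the probe given.

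Promoters of the called genes are shown because several of them hold the E-box CACGTG, a palindrome bound by factors of the MYC, USF and TFE3 families. The window was 250 bases before to 50 after each start in RefSeq (GRCm38.p6), and 71 of the 85 called genes had at least 1. Both strands were searched. The E-box was in 7 of 56 promoters of lower genes (12.5%: Amdhd2, Cited2, Lgmn, Mapkapk3, Slc27a1, Sorl1 and Tle3) and in 1 of 31 of higher genes (3.23%: Rpa1), beside 7.15% of all 32851 promoters and 8.28% of the 16126 of measured genes. The C/EBP-ATF letters TGATGNAAT and the CRE letters TGACGTCA were in 0 of both groups. A match describes the letters only. The 1 promoter of a higher gene, those of the lower genes Cited2 and Sorl1 (the 1 of its 2 promoters with the E-box), and that of Amdhd2 with 3 E-boxes follow, 5' to 3' with the E-box in capitals.
Rpa1 (chr11:75348334-75348633, minus strand): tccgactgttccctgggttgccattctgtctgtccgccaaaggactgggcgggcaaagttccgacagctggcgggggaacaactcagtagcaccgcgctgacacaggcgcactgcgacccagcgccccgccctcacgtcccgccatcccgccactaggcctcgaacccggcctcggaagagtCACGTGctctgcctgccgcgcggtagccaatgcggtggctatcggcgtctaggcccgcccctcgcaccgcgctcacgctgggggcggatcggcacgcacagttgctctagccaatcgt
Cited2 (chr10:17722978-17723277, plus strand): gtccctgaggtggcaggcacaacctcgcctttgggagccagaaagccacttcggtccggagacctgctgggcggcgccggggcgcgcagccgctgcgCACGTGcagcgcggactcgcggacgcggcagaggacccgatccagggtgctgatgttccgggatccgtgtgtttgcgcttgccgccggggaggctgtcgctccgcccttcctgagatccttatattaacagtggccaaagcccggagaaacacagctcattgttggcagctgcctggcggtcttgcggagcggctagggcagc
Sorl1 (chr9:42124248-42124547, minus strand): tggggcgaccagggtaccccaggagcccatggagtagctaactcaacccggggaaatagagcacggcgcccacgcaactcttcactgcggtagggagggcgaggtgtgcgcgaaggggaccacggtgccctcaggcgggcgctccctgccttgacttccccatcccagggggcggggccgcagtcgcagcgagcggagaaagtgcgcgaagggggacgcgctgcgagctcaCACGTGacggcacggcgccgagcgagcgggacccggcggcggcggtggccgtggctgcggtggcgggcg
Amdhd2 (chr17:24163684-24163983, minus strand): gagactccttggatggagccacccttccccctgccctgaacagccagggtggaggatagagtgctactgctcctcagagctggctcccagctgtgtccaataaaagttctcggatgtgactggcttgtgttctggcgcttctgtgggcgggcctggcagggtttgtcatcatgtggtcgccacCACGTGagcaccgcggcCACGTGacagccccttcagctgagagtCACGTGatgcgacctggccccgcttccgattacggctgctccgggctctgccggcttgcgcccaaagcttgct

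MYC partners and core MYC targets had 2 of 36 called higher (Ncl and Ppat) and 0 lower, 5 wholly above, 2 wholly below and a median of 0.07. The mean was higher in 21 and lower in 15, and Ncl was also the 1 call of the nucleolar list. Among named genes 0.168% were called higher, 3.48% lay wholly above and 2.97% wholly below. Macrophage and blood markers had a lower mean in 13 of 16 and a higher one in 3, with a median of -0.14 (47.7% of named genes had a lower mean). The markers of macrophages and blood, endothelium, endoderm, trophoblast, neuroectoderm, and mesoderm and primitive streak had 0 called members each, and the groups' scores overlapped in each. Of 15 endothelial markers 7 had a higher and 8 a lower mean, with a median of -0.03. Within that list Esam and Robo4 lay wholly above Terc+/+ and missed the threshold (2.29-fold, adjusted p = 0.0583, and 3.07-fold, adjusted p = 0.0631). Vwf lay wholly below and was not called either (-0.43, adjusted p = 0.0964). Robo4 scattered on the control arrays (7.08, 7.43 and 5.89 against 7.94 to 8.93), and its other probes differed by 0.03 and -0.02. Xist differed by 0.17 with overlapping groups (adjusted p = 0.888).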

How the data were processed

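Gene expression was measured on Illumina bead arrays in 9 ntESC samples, 3 per genotype, grouped by the genotype in the labels. The authors deposited log2 values per probe: the scale and the equal column medians (5.94) were read from the values, and neither software nor background correction is given in the sources used here. Raw signals in a second deposited table were not used, since its 18 columns match no sample label. Symbols came from the platform annotation, checked by Entrez ID against RefSeq (23141 matched, 0 changed).

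All probes were fitted with limma 3.58.1 in R 4.3.3 (lmFit, eBayes, 7 residual degrees of freedom), 6 mutant against 3 Terc+/+ arrays, two-sided, and a probe was called where the Benjamini-Hochberg adjusted p was under 0.05. Adjusted p-values are limma's throughout. Precision is set by the number of arrays, with a median SE of 0.09 for a log2 difference over all probes. Of all probes, 13269 had a mean of 6 or less. The SE was larger for some named genes, such as Cldn4 (0.29) and Zscan4c (0.71). Terc-/- was set against Terc+/- in a fit of the 3 genotypes. A list used each gene's brightest probe, its members were counted and no set test was run. Named genes were the 12 largest rises and falls among called separated genes, the 6 with the smallest p in each direction, up to 4 members per list by p, and a few fixed genes. Other called genes were named after their values were seen. Members and lists were chosen with earlier results of these data known. The fit was tested on simulated data, where 44 of 100 probes changed by 0.5 and 92 of 100 changed by 1 were called. Of the 150 calls made there, 14 were false. Alternatives changed the model, normalization, filter, weights, and arrays included.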

Additional observations from a re-analysis of the deposited data

Results flagged for a closer look

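Arc had 1 mutant array far from the others: Terc+/- replicate 2 was highest at 7.24, against 6.52 to 6.69 on the other 5. Rassf4, a Ras-association protein that fell 1.34-fold, had Terc-/- replicate 1 lowest at 5.38, against 5.54 to 5.57. These were 2 of 101 items checked, and chance alone flags about 1 in 20 such groups. Both lay wholly below the Terc+/+ arrays with these arrays included.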

How the results depend on the processing

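Against 101 calls, 38 were made with the 3 genotypes in 1 fit, 154 with cyclic loess (33.1% of them higher, against 38.6%), 38 with a trended robust variance, 4707 with array quality weights (Terc+/+ replicate 1 weighed 6.89 and replicate 3 0.21), 721 with the feeder score in the fit and 0 with a minimum fold of 1.2 (lowest adjusted p 0.144). All 101 were among the calls with array weights and with the feeder score. One probe per gene gave 113 and a mean above 6 gave 94. Leaving out 1 array gave 0 to 709. Nothing in the labels says that equal replicate numbers pair the samples. Deviations of same-numbered arrays correlated from -0.60 to 0.45, which cannot settle it with 3 arrays per genotype. With the replicate number as a block, 0 were called (lowest adjusted p 0.0504). Unadjusted, 3192 probes were under 0.05. The 1551 separated probes were 1186 with 1 probe per gene, 1133 with a mean above 6 and 1611 with cyclic loess, and 1743 to 4506 without 1 array, which lowers the number of arrays to separate. The feeder score difference of 0.21 ran from -0.34 (without Terc+/+ replicate 3) and -0.01 (without Terc-/- replicate 3) to 0.76. Terc-/- against Terc+/- gave 0 calls with 1 probe per gene, cyclic loess, trended variance, a mean above 6, the block, and without each array, and was not run with weights, feeder score or minimum fold. Leaving out 1 array turned the sign of the uncalled Pou5f1 (-0.36 to 0.43), Sox2 (-0.62 to 0.01) and Xist (-0.03 to 0.38). The causes were not tested. Raw signals with normexp, and the slide as a block, were not run, since raw columns match no label. Dim probes limit what can be resolved, and adjusted p-values near the threshold make single calls uncertain.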

Other observations

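The genes next to Terc were looked at after the data were seen. The 50 nearest measured genes on each side of Terc in the RefSeq gene order were taken (100 genes, 158 probes). Of these probes 0 were called, and 15 (9.49%) were separated, against 6.04% of all probes. The shares were not matched for brightness. Over the whole array 9.12% of probes with a mean above 6 were separated, and 3.15% of the dimmer ones. The nearest of the 15, Fcgr1, a receptor for immunoglobulin G, differed by -0.20 (SE 0.05, adjusted p = 0.133). Txnip, which binds thioredoxin, differed by -0.39 (SE 0.14, adjusted p = 0.278). Both probes of Sv2a, a synaptic vesicle protein, differed by 0.53 (adjusted p = 0.147 and 0.0631).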
